A study of Mus musculus with 15 samples.

Results

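The genes described here are receptors and ligands of the epidermal growth factor receptor (EGFR) family and the EGFR inhibitor gene Errfi1. They were chosen by name, with earlier results of these data known. Of the 10 genes listed (Egfr, Erbb2, Erbb3, Areg, Ereg, Hbegf, Tgfa, Btc, Nrg1 and Errfi1), 9 had a probe set among the 18193 genes measured. Areg had no probe set that carried its symbol alone in the annotation used and was not analysed here. Each gene was read from the probe set that carried its symbol alone and had the highest mean over the 15 arrays, and a level below is the log2 signal of that probe set.

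The arrays came from whole subcutaneous tumors of PDA30364, a mouse pancreatic ductal adenocarcinoma line that the methods trace to a tumor of a genetically engineered mouse. The line was injected into C57BL/6-Ly5.1 mice aged 6 to 12 weeks, and the tumors were taken on day 26 after inoculation. Control mice received vehicle and control IgG (n = 4), CD40 Ab mice vehicle and an agonist antibody against CD40 (n = 4), MEKi mice the MEK inhibitor GDC-0623 at 30 mg/kg daily with control IgG (n = 3), and combination mice GDC-0623 at 30 mg/kg with the CD40 antibody (n = 4). Antibody doses, active or control, fell on days 3, 5 and 7 of treatment, with a last dose 1 day ahead of analysis. All 4 groups carried the same single tumor line.

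EGFR family receptors sit on epithelial and tumor cells and pair with each other when a ligand of the EGF family binds. Ligands are made as membrane proteins and are released by ADAM proteases. The activated receptors feed RAS and the RAF, MEK and ERK kinases. ERK in turn drives transcription of feedback inhibitors and of several of the ligands. In pancreatic ductal adenocarcinoma, EGFR signaling is known to contribute to tumor development.

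The arrays had medians between 5.16 and 5.24 on the log2 scale, and the number of arrays limited the precision of every value. Of the ductal markers, the keratin gene Krt19 lay between 13.05 and 13.59 over all arrays and Epcam between 6.67 and 11.42, while the claudin genes Cldn4 (group means 4.89 to 5.58) and Cldn7 (3.50 to 3.76) were near or below the array medians. The pieces also differed in other tissue. The mean of 14 skeletal muscle genes ran from 4.38 to 6.68 in control, 4.40 to 6.13 in CD40 Ab, 7.34 to 10.14 in MEKi and 7.62 to 9.23 in combination tumors. The mean of 12 hair follicle genes was 7.28 in MEKi tumors against 3.91 to 4.59 in the other groups. The numbers in the sample titles were under 10000 for all 4 combination arrays and from 10000 on for all 3 MEKi arrays, so this series of numbers and the treatment cannot be told apart between those groups.

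In combination tumors, 4 of the 9 measured genes fell and 1 rose against control, with the largest falls in the ligand genes betacellulin (Btc) and epiregulin (Ereg). Among all genes, 8.72% fell and 10.3% rose in the same comparison. Under MEKi alone the receptor genes Egfr and Erbb3 rose and no family gene fell past the threshold, and under CD40 Ab alone no family gene passed. Every change was tested with limma between the arrays of the 2 groups, adjusted over all probe sets, with an adjusted p of 0.05 as the threshold. Values given with tissue levels or the title number series as covariates came instead from fits of all 15 arrays.

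**Figure D1:**
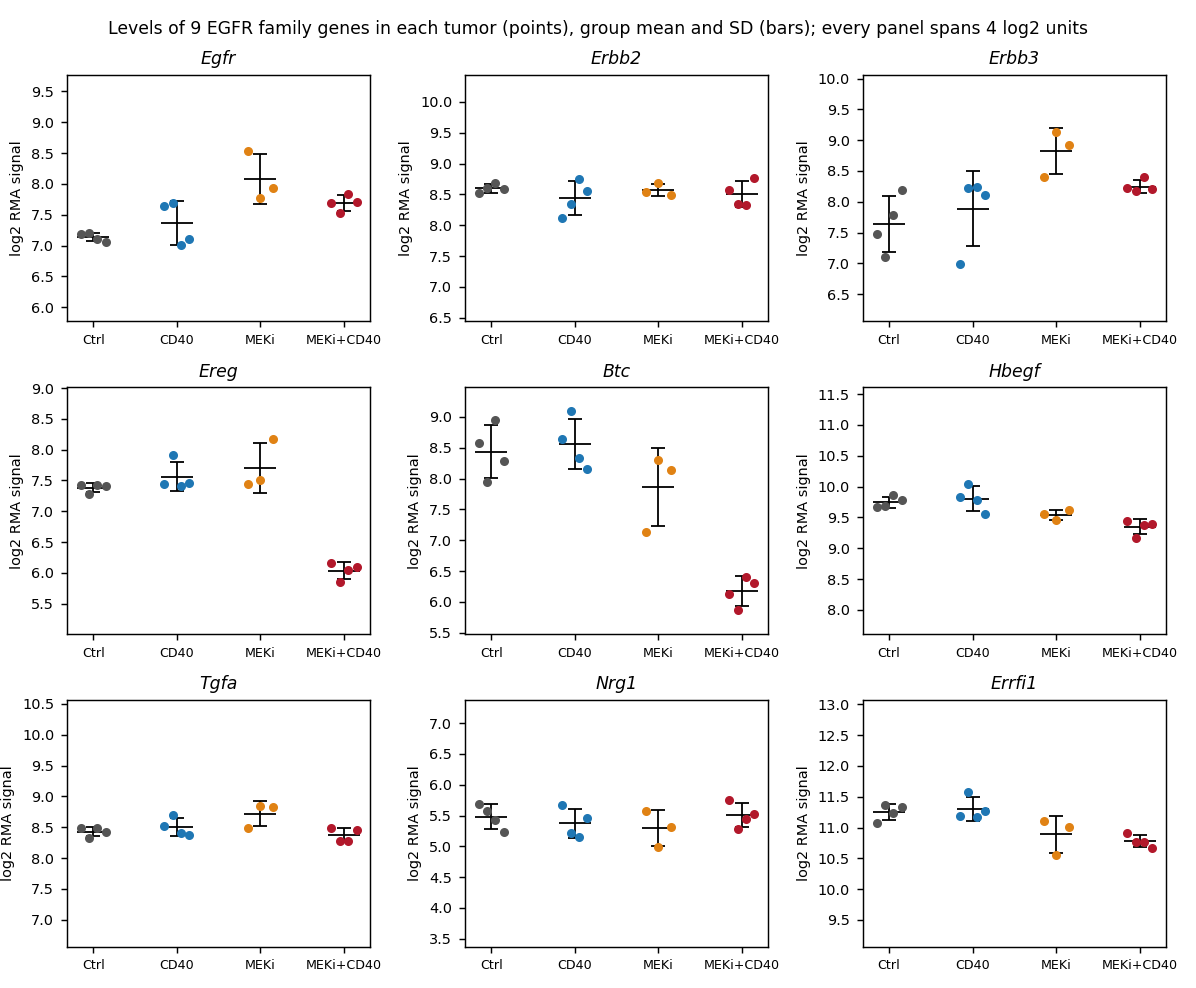
Log2 RMA signal of the 9 measured genes (vertical axis) in each tumor (points) by treatment group, with the group mean and SD as bars; every panel spans the same number of log2 units. The 4 combination tumors lie below all other tumors for Ereg (5.85 to 6.16) and Btc (5.86 to 6.41), and the 3 MEKi tumors lie above all control tumors for Egfr and Erbb3.

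Epiregulin, a ligand of EGFR and ERBB4, was low in the combination. The Ereg level was 7.42, 7.28, 7.42 and 7.41 in the control tumors and 7.45, 7.91, 7.41 and 7.46 in the CD40 Ab tumors. It was 7.44, 7.51 and 8.17 in the MEKi tumors and 6.16, 5.85, 6.04 and 6.10 in the combination tumors. All 4 combination tumors were thus below every other tumor, while the control and CD40 Ab tumors overlapped. The log2 FC of combination against control was -1.34 ± 0.077 (SE, n = 4 and 4, limma adjusted p = 3.25e-05), which made the control mean 2.54-fold the combination mean. In bulk tumor pieces, fewer cells that make a transcript and less transcript per cell cannot be told apart. Against MEKi alone the log2 FC was -1.67 ± 0.18 (limma adjusted p = 0.00398), and against CD40 Ab alone it was -1.52 ± 0.12 (limma adjusted p = 0.000749). The 3 MEKi tumors were all slightly above the control tumors, with a difference of 0.32 ± 0.17 that did not pass (limma adjusted p = 0.233).

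Betacellulin, a ligand of EGFR and ERBB4, had the largest change of the family. The Btc level was 8.57, 7.94, 8.95 and 8.29 in control tumors and 8.64, 9.10, 8.34 and 8.16 in CD40 Ab tumors. It was 7.14, 8.30 and 8.14 in MEKi tumors and 6.13, 5.86, 6.41 and 6.31 in combination tumors. The combination tumors were again below all others, and MEKi replicate 1 lay between them and the rest. The log2 FC of combination against control was -2.26 ± 0.20 (SE, n = 4 and 4, limma adjusted p = 0.000232), a control mean 4.79-fold the combination mean. Against CD40 Ab the log2 FC was -2.38 ± 0.20 (limma adjusted p = 0.000962) and against MEKi it was -1.68 ± 0.27 (limma adjusted p = 0.0211). The call against MEKi was lost without MEKi replicate 3 (-1.54, limma adjusted p = 0.0944) and without any single combination array (limma adjusted p from 0.0504 to 0.0708). With muscle and skin levels as covariates, neither the value against CD40 Ab (-1.65, limma adjusted p = 0.103) nor that against MEKi (-1.27, limma adjusted p = 0.128) passed. MEKi against control gave -0.58 ± 0.31, which did not pass (limma adjusted p = 0.259). The other Btc probe set moved alike, by -1.98 ± 0.17 in combination against control (limma adjusted p = 0.000198).

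Ranked by log2 FC among the 18193 genes in combination against control, Btc was number 10 and Ereg number 42 from the lowest. Whether the effect of CD40 Ab depended on MEKi was tested over all 15 arrays by the interaction: the change on adding CD40 Ab to MEKi, less the change on adding CD40 Ab to vehicle. Of the 9 family genes, 2 had a negative interaction past the threshold, compared with 2.56% of all genes, and none a positive one. For Ereg it was -1.84 ± 0.21 (limma adjusted p = 0.000855) and for Btc -1.80 ± 0.39 (limma adjusted p = 0.0242). The Btc value did not pass without control replicate 2 (limma adjusted p = 0.054), MEKi replicate 3 (limma adjusted p = 0.0688) or combination replicate 2 (limma adjusted p = 0.0515), nor with the title number series as a covariate (-2.35, limma adjusted p = 0.0754). With the muscle and skin list levels as covariates, the Btc interaction was -1.22 (limma adjusted p = 0.243), and that of Ereg was -1.75 (limma adjusted p = 0.0113).

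The falls of both ligands against control were measured beside shifts of other tissue, with 13 of 14 skeletal muscle genes higher and 1 of 13 skin keratinocyte genes lower past the threshold in combination tumors. Genes of immune and stromal cells rose too: 9 of 12 macrophage (1 fell), 8 of 10 T cell and 8 of 11 granulocyte genes. So did 5 of 12 fibroblast genes, where 10.3% of all genes rose and 8.72% fell. The part of these cells in the ligand values was not tested. The skin list mean ran from 4.39 to 5.10 in control, 4.40 to 6.07 in CD40 Ab, 5.36 to 6.46 in MEKi and 4.33 to 4.55 in combination tumors. With muscle and skin levels as covariates, Ereg fell by 1.10 (limma adjusted p = 0.017) and Btc fell by 1.70 (limma adjusted p = 0.0279) on the log2 scale. The skeletal muscle mean was 8.31 in MEKi tumors and 8.27 in combination tumors. The part of muscle in the ligand values was not tested beyond the covariates. Within the sample titles numbered under 10000, the log2 FC of combination against control was -1.34 for Ereg and -2.31 for Btc (limma adjusted p = 0.000148 and 0.000714). The ductal list mean was 9.80 ± 0.18 in control and 10.08 ± 0.09 in combination tumors (SD, n = 4 and 4), and the keratin gene Krt19 was between 13.14 and 13.35 in combination tumors and between 13.05 and 13.23 in control tumors.

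**Figure D2:**
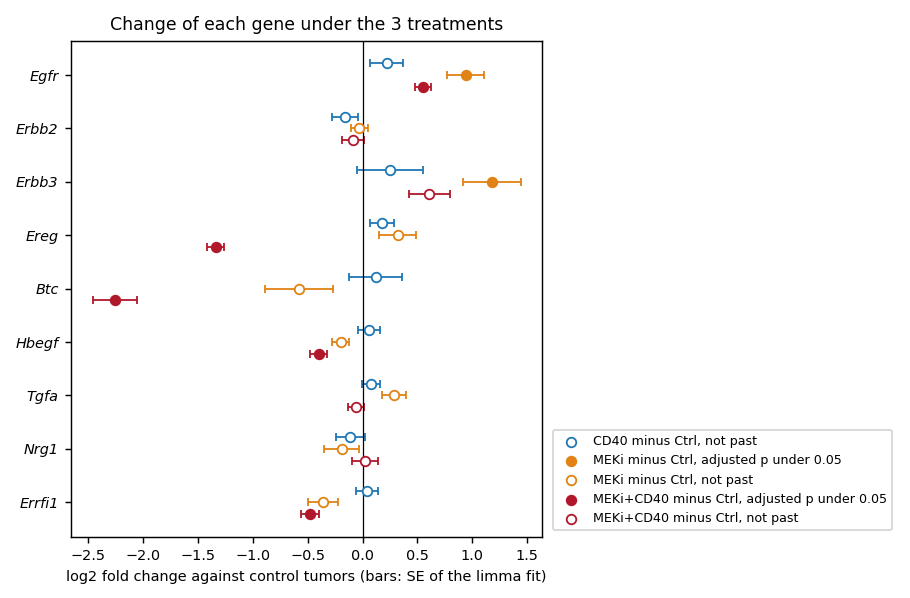
Log2 fold change of each gene against control (horizontal axis) under CD40 Ab, MEKi and the combination; bars are the SE of the limma fit, and filled points passed an adjusted p of 0.05. Btc (-2.26) and Ereg (-1.34) stand out under the combination alone, and Egfr is to the right of zero under both MEKi (0.94) and the combination (0.55).

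The genes for Epgn, Ereg, Areg and Btc follow each other on mouse chromosome 5 in the RefSeq annotation of GRCm38.p6. On one side lie the chemokine genes Cxcl3, Cxcl15, Cxcl1 and Cxcl2 and then Mthfd2l, and on the other Parm1 and Rchy1. In combination against control, the neutrophil chemokine genes Cxcl1 and Cxcl3 rose by 0.86 ± 0.14 (limma adjusted p = 0.00327) and 0.60 ± 0.15 (limma adjusted p = 0.0263). Epgn, the gene of the EGFR ligand epigen next to Ereg, was -0.28 ± 0.12 and did not pass (limma adjusted p = 0.158). The mitochondrial folate enzyme gene Mthfd2l fell by 0.39 ± 0.069 (limma adjusted p = 0.00557), and Parm1 on the far side of Btc was 0.28 ± 0.086 (limma adjusted p = 0.0579).

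**Figure D3:**
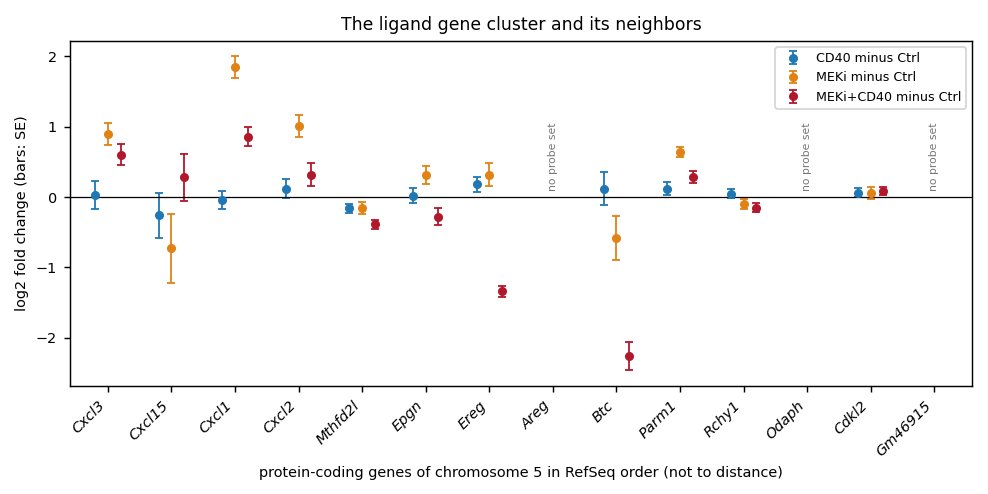
Log2 fold change against control (vertical axis, bars are the SE) of the protein-coding genes around the ligand genes on chromosome 5, in RefSeq order and not to distance. Ereg (-1.34) and Btc (-2.26) are low under the combination, between neighbors whose combination values lie between -0.39 and 0.86. Areg, Odaph and Gm46915 had no probe set that carried their symbol alone.

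Because several family genes fell together, the promoter windows that RefSeq gives for GRCm38.p6, from 250 bases before to 50 bases after a gene start, were searched for motifs of factors downstream of ERK and related kinases. Windows of 6 of the 10 genes were searched, 7 windows in all, so 2 of the 4 genes that fell were covered. No window of Ereg, Hbegf, Erbb3 or Nrg1 was searched, which does not show that RefSeq gives none for them. The letters searched on both strands were TGAGTCA for AP-1, TGACGTCA for the cyclic AMP response element (CRE) and CCGGAAGT for ETS factors, which match 5.20%, 1.79% and 3.89% of 32851 mouse promoter windows. The CRE letters were found in 2 of the 7 windows, those of Areg and of the downstream Errfi1 start, and the other letters in none. The windows of Btc (chr5:91402945-91403244, minus strand) and of that Errfi1 start (chr4:150854820-150855119, plus strand) are shown as those of 2 genes that fell in combination tumors, 1 without and 1 with a match. Capitals mark the CRE letters, which begin 51 bases before the Errfi1 start.
Btc: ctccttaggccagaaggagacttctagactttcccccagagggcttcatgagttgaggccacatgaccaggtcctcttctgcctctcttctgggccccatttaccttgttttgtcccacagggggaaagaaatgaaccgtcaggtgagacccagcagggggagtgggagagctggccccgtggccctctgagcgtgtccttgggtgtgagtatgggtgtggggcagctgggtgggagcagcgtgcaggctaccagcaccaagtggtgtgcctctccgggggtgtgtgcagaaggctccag
Errfi1: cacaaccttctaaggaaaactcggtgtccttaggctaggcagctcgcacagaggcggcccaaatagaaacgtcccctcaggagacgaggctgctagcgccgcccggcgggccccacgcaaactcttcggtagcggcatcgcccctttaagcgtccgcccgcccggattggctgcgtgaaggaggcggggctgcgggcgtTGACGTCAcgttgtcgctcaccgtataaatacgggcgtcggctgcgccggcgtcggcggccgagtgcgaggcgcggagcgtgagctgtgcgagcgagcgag
Both are printed in the direction of transcription. A match describes letters in a window only, and the absence of one says nothing about a factor.

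Heparin-binding EGF-like growth factor, encoded by Hbegf, binds EGFR and ERBB4 and fell to a smaller extent. The Hbegf level was 9.67, 9.68, 9.86 and 9.78 in control and 9.83, 10.05, 9.78 and 9.56 in CD40 Ab tumors. It was 9.55, 9.46 and 9.62 in MEKi tumors and 9.45, 9.17, 9.38 and 9.39 in combination tumors. The combination and MEKi tumors were all below the control tumors. The combination tumors were also below the MEKi tumors, narrowly (9.45 at most against 9.46 at least). Combination against control gave -0.40 ± 0.078 (limma adjusted p = 0.00878) and combination against CD40 Ab -0.46 ± 0.11 (limma adjusted p = 0.0459). The first was -0.32 with muscle and skin levels as covariates and did not pass (limma adjusted p = 0.325). The second of these was lost under 11 of 23 alternatives, among them leaving out any of 7 arrays. MEKi against control was -0.20 ± 0.08 and did not pass (limma adjusted p = 0.126). Combination against MEKi was -0.20 ± 0.09 and did not pass (limma adjusted p = 0.312). A second Hbegf probe set fell by 0.30 ± 0.072 in combination against control (limma adjusted p = 0.021). At that probe set the MEKi tumors overlapped with both the control and the combination tumors.

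Transforming growth factor alpha, the EGFR ligand encoded by Tgfa, passed in no comparison. Its level was between 8.32 and 8.49 in control, 8.38 and 8.70 in CD40 Ab, and 8.27 and 8.48 in combination tumors. In the MEKi tumors it was 8.48, 8.85 and 8.83, so 2 of 3 lay above every other tumor. MEKi against control was 0.29 ± 0.11 (limma adjusted p = 0.102), and without MEKi replicate 1 it was 0.41 (limma adjusted p = 0.0113). With the mean over the 3 Tgfa probe sets it was -0.01 (limma adjusted p = 0.965), and at a dimmer probe set all MEKi tumors were below all control tumors (-0.25 ± 0.12, limma adjusted p = 0.202).

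Neuregulin 1, the ligand of ERBB3 and ERBB4 encoded by Nrg1, likewise passed in no comparison. Its level lay between 5.23 and 5.69 in control, 5.15 and 5.67 in CD40 Ab, 4.99 and 5.58 in MEKi, and 5.28 and 5.75 in combination tumors. The 4 groups overlapped throughout. The largest of its log2 FC against control was -0.19 ± 0.16, under MEKi (limma adjusted p = 0.471).

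Of the receptors, Egfr was above control under MEKi and under the combination. The Egfr level was 7.19, 7.20, 7.11 and 7.06 in control and 7.64, 7.69, 7.01 and 7.11 in CD40 Ab tumors. It was 8.54, 7.77 and 7.94 in MEKi and 7.69, 7.52, 7.83 and 7.70 in combination tumors. All MEKi and combination tumors were above all control tumors, and the CD40 Ab tumors were split, with 2 close to control and 2 close to the combination. This split followed the title numbers: the 2 higher tumors were numbered under 10000, as were all combination tumors, and the 2 lower ones from 10000 on. Among titles under 10000, CD40 Ab against control was 0.50 (limma adjusted p = 0.116) and combination against CD40 Ab was 0.02 (limma adjusted p = 0.941). MEKi against control was 0.94 ± 0.17 (limma adjusted p = 0.00793) and combination against control 0.55 ± 0.075 (limma adjusted p = 0.00167). Combination against MEKi was -0.40 ± 0.18 and did not pass (limma adjusted p = 0.296). Over all arrays of the 2 groups, combination against CD40 Ab was 0.32 ± 0.16 and did not pass either (limma adjusted p = 0.273). Within titles from 10000 on, where 1 control array remained, MEKi against control was 1.02.

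The rise of Egfr depended on the probe set. Egfr had 7 probe sets, and in combination against control only the one with the highest mean passed, the others ranging from -0.21 to 0.10. In MEKi against control a second probe set passed as well, at 0.70 ± 0.13 (limma adjusted p = 0.00825). With the mean over the 7 probe sets, the log2 FC was 0.04 in combination against control (limma adjusted p = 0.633) and 0.18 in MEKi against control (limma adjusted p = 0.0807). In the fit of all 15 arrays the combination value was 0.54 (limma adjusted p = 0.0508), and with muscle and skin levels as covariates it was 0.33 (limma adjusted p = 0.462).

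Erbb3 encodes the receptor that pairs with ERBB2 and binds neuregulins, and its level rose under MEKi. It was 7.48, 7.11, 7.78 and 8.19 in control and 6.99, 8.22, 8.24 and 8.11 in CD40 Ab tumors. It was 8.41, 9.14 and 8.92 in MEKi and 8.22, 8.17, 8.40 and 8.20 in combination tumors. The MEKi tumors were above all others, and the combination tumors overlapped with control only through control replicate 4. MEKi against control was 1.18 ± 0.26 (limma adjusted p = 0.0193). Combination against control was 0.61 ± 0.19 and did not pass (limma adjusted p = 0.0658), whereas without control replicate 4 it was 0.79 (limma adjusted p = 0.0105) and with the ductal list level as a covariate it was 0.00 (limma adjusted p = 0.988). The second Erbb3 probe set gave 0.01 ± 0.079 in MEKi against control (limma adjusted p = 0.949).

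The MEKi call of Erbb3 depended on single arrays and on covariates. It did not pass without control replicate 1 (1.13, limma adjusted p = 0.0593), MEKi replicate 2 (1.02, limma adjusted p = 0.055) or MEKi replicate 3 (1.14, limma adjusted p = 0.0669). The log2 FC was 0.70 with the title number series (limma adjusted p = 0.162), 0.54 with muscle and skin levels (limma adjusted p = 0.5) and 0.19 with the ductal list level (limma adjusted p = 0.554) as covariates. Within titles from 10000 on, where 1 control array remained, it was 0.63 (limma adjusted p = 0.587). The epithelial adhesion gene Epcam rose by 2.81 ± 0.54 in MEKi against control (limma adjusted p = 0.0112) and by 2.03 ± 0.44 in combination against control (limma adjusted p = 0.0155). The epithelial mucin gene Muc1 rose as well, by 1.28 ± 0.13 (limma adjusted p = 0.000927) and 0.88 ± 0.13 (limma adjusted p = 0.0022). In MEKi against control, 10.7% of all genes rose and 10.4% fell. Of the 11 ductal genes measured, 2 rose and 2 fell (Sox9 and Msln) in MEKi tumors and 7 did not pass. The part of this shift in the Erbb3 value was not tested beyond the covariate.

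Erbb2, which encodes the receptor that has no ligand of its own, did not pass in any comparison. Its level was 8.52, 8.60, 8.69 and 8.58 in control and 8.12, 8.34, 8.75 and 8.55 in CD40 Ab tumors. It was 8.54, 8.68 and 8.49 in MEKi and 8.57, 8.35, 8.33 and 8.77 in combination tumors. The groups overlapped, and the 3 log2 FC against control were between -0.16 and -0.03.

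Errfi1 encodes an inhibitor that binds the EGFR kinase domain and is induced by growth factor signaling. Its level was 11.08, 11.37, 11.23 and 11.34 in control and 11.18, 11.58, 11.17 and 11.27 in CD40 Ab tumors. It was 11.11, 10.55 and 11.01 in MEKi and 10.91, 10.77, 10.76 and 10.67 in combination tumors. The combination tumors were below all control and CD40 Ab tumors and overlapped with the MEKi tumors. Combination against control was -0.48 ± 0.082 (limma adjusted p = 0.00467) and combination against CD40 Ab -0.52 ± 0.10 (limma adjusted p = 0.0233). The first did not pass with muscle and skin levels (-0.59, limma adjusted p = 0.105) or the ductal level (-0.46, limma adjusted p = 0.0677) as covariates. The second was lost under 8 of 23 alternatives, among them leaving out CD40 Ab replicate 4 (limma adjusted p = 0.0543), combination replicate 2 (limma adjusted p = 0.0629) or combination replicate 4 (limma adjusted p = 0.064). MEKi against control was -0.36 ± 0.14 and did not pass at this probe set (limma adjusted p = 0.124), but the other Errfi1 probe set gave -0.47 ± 0.13 and passed (limma adjusted p = 0.0427).

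By count, 4 family genes had all combination arrays below all control arrays and 1 had all of them above, compared with 14.4% and 12.3% of all genes. The median log2 FC of the 9 genes was -0.09 in this comparison, against -0.04 for all genes. In MEKi against control, 2 genes rose and 0 fell, where 10.7% and 10.4% of all genes did, and 3 genes had all arrays above and 1 all arrays below the control arrays, where 16.4% and 19.3% of all genes did. The share of family genes changed under MEKi was thus near that of all genes. In combination against MEKi, 2 of 9 fell, compared with 2.65% of all genes, and 4 had all combination arrays below the MEKi arrays, compared with 10.8%. Of these 4, Hbegf (9.45 against 9.46) and Erbb3 (8.40 against 8.41) were parted narrowly and did not pass. In combination against CD40 Ab, 4 of 9 fell, compared with 2.52% of all genes, and 4 had all arrays lower, compared with 10.1%. That count of 4 was 2 to 3 with any 1 array left out and 1 with muscle and skin levels as covariates.

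CD40 Ab against control changed 0 of the 9 genes by limma, with 0 at an unadjusted p under 0.05, where 1.06% of all genes changed. The largest of these log2 FC was that of Erbb3, at 0.25 ± 0.30 (limma adjusted p = 0.854), followed by Egfr at 0.22 ± 0.15 (limma adjusted p = 0.692). The comparisons against control share the 4 control arrays.

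The genes whose pattern over the 15 arrays was most like that of a family gene were found by the root mean square difference of centred log2 levels. Nearest to both Btc (0.306) and Ereg (0.357) was Has3, which encodes a hyaluronan synthase. The Has3 mean was 6.08 in control, 6.11 in CD40 Ab, 5.71 in MEKi and 4.00 in combination tumors. The Ereg mean, in contrast, was higher in MEKi (7.71) than in control tumors (7.38). Next came Lratd1 and the neuronal pentraxin gene Nptx1 for Btc, and Sh2d5 and the sialyltransferase gene St3gal6 for Ereg. Nearest to Egfr was App (0.135), which encodes the amyloid precursor protein, and nearest to Erbb3 was Fxyd3 (0.156), which encodes an epithelial regulator of the sodium pump. The Fxyd3 mean was 10.34 in control, 10.52 in CD40 Ab, 11.55 in MEKi and 10.84 in combination tumors. Nearest to Hbegf and Errfi1 were Uhrf1bp1l (0.104) and Paqr3 (0.147). The root mean square spread of the gene itself was 1.048 for Btc, 0.698 for Ereg, 0.408 for Egfr and 0.56 for Erbb3. For Hbegf it was 0.219 and for Errfi1 0.278. The distances for Ereg, Hbegf and Errfi1 were thus not small beside the spread of the gene. These are descriptions over arrays of 4 groups and carry no test.

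The remaining EGF family genes were Erbb4, Egf, Epgn, Nrg2, Nrg3 and Nrg4. None of these 6 passed against control under any treatment, and the means of Erbb4 and Nrg3 were from 2.34 to 2.67 in every group. Epgn alone passed in combination against MEKi, at -0.59 ± 0.11 (limma adjusted p = 0.0364), where 2.65% of all genes fell. Its group means were from 3.76 to 4.35, below the array medians of 5.16 to 5.24. Between these 2 groups the title number series cannot be told apart from the treatment.

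Of 9 genes of ligand shedding, 3 rose and 1 fell both in combination and in MEKi against control, with medians of 0.15 and 0.13. Among all genes, 10.3% rose and 8.72% fell in the former, and 10.7% and 10.4% in the latter. The single fall among 9 genes was near those shares. The third riser beside Adam12 and Adam19 was Adam17 in the combination (0.27 ± 0.071, limma adjusted p = 0.0325) and Adam9 under MEKi (0.33 ± 0.063, limma adjusted p = 0.0107), both sheddase genes. Adam12, a protease gene expressed by stromal cells that can cleave HB-EGF, was at means of 8.02 in control, 7.82 in CD40 Ab, 10.39 in MEKi and 9.02 in combination tumors, and rose by 2.37 ± 0.21 under MEKi (limma adjusted p = 0.000421) and by 0.99 ± 0.19 under the combination (limma adjusted p = 0.0078). The protease gene Adam19 rose by 1.28 ± 0.27 (limma adjusted p = 0.0154) and 1.08 ± 0.12 (limma adjusted p = 0.000624). The mean of 12 fibroblast genes moved with both, from 9.09 in control to 10.79 in MEKi and 9.73 in combination tumors, and its part in these values was not tested. Frmd8, which encodes a partner of the inactive rhomboid proteins that traffic the main sheddase ADAM17, fell by 0.73 ± 0.077 under MEKi (limma adjusted p = 0.000963) and by 0.37 ± 0.062 under the combination (limma adjusted p = 0.00412).

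Of 12 genes of receptor turnover and restraint, 1 rose and 2 fell in combination against control, with a median of -0.05, and 1 rose and 1 fell in MEKi against control, with a median of -0.08. Among all genes, 10.3% rose and 8.72% fell in the former and 10.7% and 10.4% in the latter, shares that counts of 1 or 2 among 12 genes cannot be told apart from. Lrig3, a leucine-rich repeat gene of a family that modulates ERBB receptors, rose by 1.50 ± 0.15 under MEKi (limma adjusted p = 0.000846). It rose by 0.51 ± 0.13 under the combination (limma adjusted p = 0.0269), with an interaction of -1.01 ± 0.22 (limma adjusted p = 0.0241). Its means were 4.27 in control and 4.78 in combination tumors, below the array medians, and 5.77 in MEKi tumors. Socs5, which encodes a suppressor that promotes EGFR degradation, was lowest in combination tumors. Its mean was 9.22 in control, 9.29 in CD40 Ab, 8.95 in MEKi and 8.45 in combination tumors, a fall of 0.77 ± 0.065 against control (limma adjusted p = 0.000182) with an interaction of -0.56 ± 0.12 (limma adjusted p = 0.0243). Lrig2 fell by 0.33 ± 0.074 under the combination (limma adjusted p = 0.0168) and by 0.43 ± 0.10 under MEKi (limma adjusted p = 0.0256).

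Downstream of the receptors, 17 of 22 listed adaptor and kinase genes had a probe set that carried their symbol alone. In combination against control 2 rose and 5 fell, with a median of -0.02, and in MEKi against control 1 rose and 5 fell, with a median of -0.11. Among all genes, 10.3% rose and 8.72% fell in the former and 10.7% and 10.4% in the latter. The genes that fell were Shc1, Sos2, Plcg1, Map2k1 and Eps8 in the former and Shc1, Plcg1, Nras, Map2k1 and Eps8 in the latter. Gab1, an adaptor gene, rose by 0.30 ± 0.075 in the combination (limma adjusted p = 0.0277). Pik3r1, the gene of the regulatory subunit of PI3 kinase, rose by 0.66 ± 0.062 (limma adjusted p = 0.000294) and 0.76 ± 0.14 (limma adjusted p = 0.0094). Eps8, the gene of an EGFR substrate, fell by 0.48 ± 0.079 (limma adjusted p = 0.00406) and 0.29 ± 0.081 (limma adjusted p = 0.0463). Map2k1, the gene of the drug target MEK1, fell by 0.33 ± 0.077 (limma adjusted p = 0.0213) and 0.64 ± 0.18 (limma adjusted p = 0.0448).

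Among genes that ERK is known to induce, MEKi alone and the combination lowered different numbers, and the difference between those numbers was not tested as such. In MEKi against control 4 of 19 fell and 1 rose, with a median of -0.04. In combination against control 13 fell, with a median of -0.43. Among all genes, 10.4% fell and 10.7% rose in the former, and 8.72% fell in the latter. Dusp4, the gene of an ERK phosphatase, fell by 1.13 ± 0.21 under MEKi (limma adjusted p = 0.0088) and by 1.06 ± 0.14 under the combination (limma adjusted p = 0.00115). Etv5, an ETS factor gene, fell by 0.65 ± 0.082 (limma adjusted p = 0.00194) and 0.66 ± 0.069 (limma adjusted p = 0.000487). As for Ereg, the lowest Dusp5 levels were those of the combination tumors. Dusp5, a further ERK phosphatase gene, was at means of 7.88 in control, 8.17 in CD40 Ab, 8.15 in MEKi and 7.32 in combination tumors, and its interaction was -1.13 ± 0.21 (limma adjusted p = 0.0104). The AP-1 factor gene Fosl1 fell by 1.00 ± 0.15 (limma adjusted p = 0.00251) and the early response factor gene Egr1 by 0.84 ± 0.11 (limma adjusted p = 0.00136) in combination against control. Under MEKi the feedback inhibitor gene Spred2 fell by 0.74 ± 0.073 (limma adjusted p = 0.000654) and the ETS factor gene Etv4 by 0.56 ± 0.11 (limma adjusted p = 0.00995), whereas the feedback inhibitor gene Spry1 rose by 0.70 ± 0.13 (limma adjusted p = 0.01). In combination against MEKi, Dusp5 was the one ERK output gene of 19 that passed, at -0.83 ± 0.12 (limma adjusted p = 0.0151). Among all genes, 2.65% fell in that comparison.

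**Figure D4:**
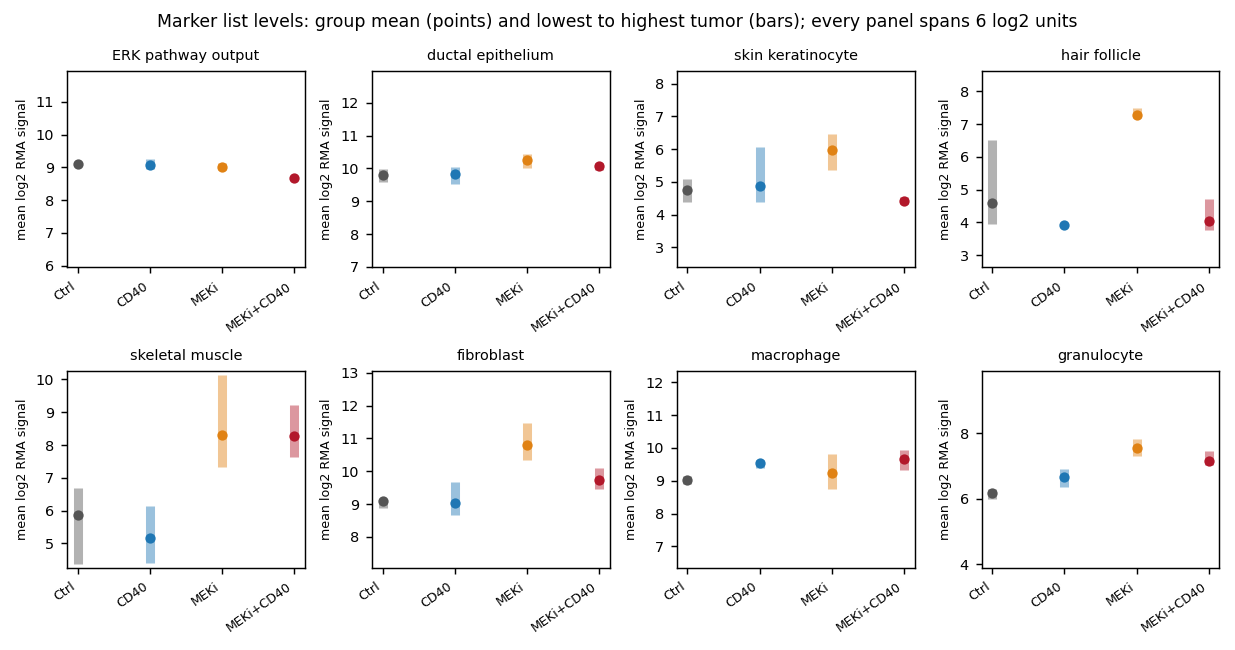
Mean log2 RMA signal of 8 gene lists (vertical axis) by treatment group; points are group means, bars run from the lowest to the highest tumor, and every panel spans the same number of log2 units. ERK output genes were lowest in combination tumors (8.64 to 8.69 against 8.91 to 9.26 elsewhere), hair follicle genes were highest in MEKi tumors, and muscle and granulocyte genes were above control in both MEKi (8.31 and 7.54) and combination tumors (8.27 and 7.16).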

How the data were processed

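Tumor RNA was hybridized to Affymetrix mouse 430 2.0 arrays, 1 per tumor. The deposited log2 signals, 1 per probe set and array, come from the authors' robust multichip averaging (RMA), which corrects background, quantile normalizes and summarizes probes, so arrays share 1 distribution and differences are relative. The RMA software version is not given in the sources used here. The submitters' notes differ on the number of mice per group, and the arrays here were 4, 4, 3 and 4.

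Of 45101 probe sets, 64 array controls were left out. Of the 45037 tested, 34945 had 1 gene symbol, 932 several and 9160 none in the platform annotation. Where several probe sets carried a gene's symbol alone, that with the highest mean was read. Groups came from the treatment labels and were compared by limma (version 3.58.1, under R 4.3.3; empirical Bayes, two-sided). Each main fit held only the 2 groups compared, and p-values were adjusted by Benjamini-Hochberg across the 45037 probe sets. The interaction used all 15 arrays. So did the fits with the title number series, muscle and skin levels or the ductal level as covariates, which thus differ from the main fits in arrays too. The fit was tested on simulated data. Each ± after a log2 FC is the standard error, each ± after a level the SD.

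All family genes are named in the text. Of each pathway list, up to 3 genes with the largest passing change and arrays that did not overlap were named, and for each passing family gene the 3 genes with the most similar pattern. Genes beyond this (such as Etv4, Etv5, Dusp5, Adam9, Adam17, Gab1 and the chromosome 5 neighbors) were chosen after their values were seen. The family genes and lists were chosen with earlier results of these data known. Alternatives were other models, scalings, filters, probe set choices, a threshold of 0.01, the replicate number as a block, the title number series, muscle and skin levels, and leaving out each array. The ductal level as a covariate was added after seeing the data.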

Additional observations from a re-analysis of the deposited data

Results flagged for a closer look

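For 3 of 27 sets of 4 tumors (a gene in a treatment group of 4), 1 tumor stood far from the other 3. Chance gives this in about 1 in 20 sets. The lowest Erbb3 level of the CD40 Ab tumors, 6.99, lay below the other 3, which were between 8.11 and 8.24. The lowest Ereg level of the control tumors was 7.28, with the others at 7.41 to 7.42, a gap that is small beside the fall in combination tumors. The highest Ereg level of the CD40 Ab tumors was 7.91, with the others at 7.41 to 7.46.

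The effect of CD40 Ab differed with and without MEKi for 2 genes by the limma interaction test. The interaction was -1.84 for Ereg (limma adjusted p = 0.000855), with group means of 7.38 in control, 7.56 in CD40 Ab, 7.71 in MEKi and 6.04 in combination tumors. It was -1.80 for Btc (limma adjusted p = 0.0242), with group means of 8.44, 8.56, 7.86 and 6.18 in the same order.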

How the results depend on the processing

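Of 54 values (9 genes in 6 comparisons), 15 passed. Over 1269 alternatives, 1201 kept their side of the threshold, 52 no longer passed, 16 newly passed and none of the values that passed turned its direction. Another 47 changed sign but passed in neither setting. The Ereg and Btc falls against control passed in all 23 alternatives each. The number of family genes past the threshold was 5 in combination against control, 2 in MEKi against control, 2 in combination against MEKi, 4 in combination against CD40 Ab and 2 in the interaction. With muscle and skin levels as covariates it was 2 in combination against control, 1 in MEKi against control and 1 in combination against CD40 Ab, and it stayed at 2 in combination against MEKi and in the interaction with Egfr in place of Btc. At a threshold of 0.01 it was 1 in MEKi against control, 1 in combination against MEKi, 2 in combination against CD40 Ab and 1 in the interaction. With the title number series as a covariate it was 1 in MEKi against control and 1 in the interaction, within titles from 10000 on it was 0 in MEKi against control, where 1 control array remained and was assumed to vary like the MEKi arrays, and with probe sets averaged per gene it was 1 in MEKi against control. Leaving out 1 array at a time gave 5 to 6 in combination against control, 1 to 3 in MEKi against control, 0 to 0 in CD40 Ab against control, 1 to 4 in combination against MEKi, 2 to 3 in combination against CD40 Ab and 1 to 3 in the interaction. The cause of these changes was not tested. The low level of Nrg1 limits what its probe set can show.

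Same-numbered samples deviated together (correlation over 0.1) in 9 of 21 pairs, from -0.278 to 0.207, so the numbers were not taken to pair samples. With the replicate block, 0 family genes passed in combination against MEKi, where Ereg was -1.69 (limma adjusted p = 0.0554) and Btc -1.73 (limma adjusted p = 0.117), and 2 in combination against CD40 Ab. It gave 6 in combination against control, 2 in MEKi against control, 0 in CD40 Ab against control and 2 in the interaction.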
